A study of Mus musculus with 18 samples.

Results

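Ribosome occupancy was measured against mRNA in mesodermal cells of the mouse embryo at E11.5. The genes described are all those of the mesoderm table whose normalized reads averaged 100 or more over the 3 RNA-Seq libraries. These were 10944 of 12064 genes. The remaining 1120 genes fell below that minimum. The gene just inside it had a mean of 100.070 and the gene just outside it a mean of 99.997 normalized reads. Cells were GFP+ cells sorted from embryos that carried 1 copy of the transgene Tg(T-cre)1LWD/J/+ over the reporter R26-mTmGflox/+. Before the sort, the embryos were dissociated with trypsin in the presence of cycloheximide, and the effect of this handling on the values was not tested. T-Cre recombines that membrane reporter in the descendants of the primitive streak, so somite, limb and intermediate mesoderm were all in the gate and no one tissue was isolated. Each of the 3 biological replicates was divided into a tube for Ribo-Seq and a tube for RNA-Seq, giving 6 of the 18 libraries of the series. The other 12 came from neural tube (NT) and forelimb bud (FL) of the same day. No untreated or wild-type comparison group belongs to this table, and every library carries the same alleles.

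Ribo-Seq reads the short mRNA pieces that a translating ribosome shields from nuclease, the ribosome-protected fragments (RPFs), while RNA-Seq of fragmented polyA RNA reads the message itself. Their ratio for a gene, the translation efficiency (TE), is a relative measure: since both kinds of read are counted over the same codons, it says how densely ribosomes covered the coding sequence (CDS) of a message beside the typical message of the same cells, not how many ribosomes the whole message carried. It is set by how often ribosomes start on the message and how fast they move along it. Upstream open reading frames (uORFs) and structure in the leader are known to lower it. Here log2 TE was log2(RPF + 1) minus log2(RNA + 1) of the normalized reads in each replicate pair, shifted so that the median gene of each pair stands at 0. A log2 TE of 1 is therefore a ribosome density per message 2-fold that of the median gene.

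The reads behind the values could be recovered, since every normalized value was a whole multiple of what 1 read was worth. RNA-Seq libraries held 38054003 to 50136443 reads and Ribo-Seq libraries 11000015 to 16802829. In the shallowest Ribo-Seq library the median gene of the table had 312 reads, and 10848 members had at least 10 reads in each Ribo-Seq library. The highest 1% of genes (121 genes) took 16.1% to 18.8% of normalized reads in RNA-Seq and 20.1% to 25.7% in Ribo-Seq, with replicate 2 the most concentrated in both. The spread of log2 TE over members was also widest in pair 2 (SD 1.28, against 1.02 in pairs 1 and 3). Gene by gene, log2 TE correlated between pairs with Pearson's r of 0.86 (pairs 1 and 2), 0.93 (pairs 1 and 3) and 0.92 (pairs 2 and 3) across the 10944 members, which are not independent replicates. The median gene had an SD of 0.29 over its 3 pairs.

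A gene was called TE-low or TE-high where it lay at least 3-fold from the median with an adjusted p under 0.05 (limma over all 12064 genes, replicate as a block, Benjamini-Hochberg). Of the members, 1156 (10.6%) were TE-low and 112 (1.02%) TE-high, and each of them had the same sign in all 3 pairs. These shares are the background for every count below. The number of TE-high genes depended on single replicates: it was 226 without replicate 1 and 54 without replicate 2. The distribution was lopsided, with the 5th percentile of mean log2 TE at -2.07 and the 95th at 1.28.

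The first question was whether TE followed how much mRNA a gene had, first in reads per gene, which are not corrected for length. Across members, log2 RNA correlated with log2 RPF at r = 0.86, 0.80 and 0.85 in pairs 1 to 3, and with log2 TE at -0.05, -0.09 and -0.08. RNA is the denominator of TE, so a weak negative value carries shared error. Members were split into 4 classes by mean RNA, from 100 to 500, 500 to 2000, 2000 to 10000 and 10000 or more normalized reads, holding 3405, 4630, 2568 and 341 genes.

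**Figure D1:**
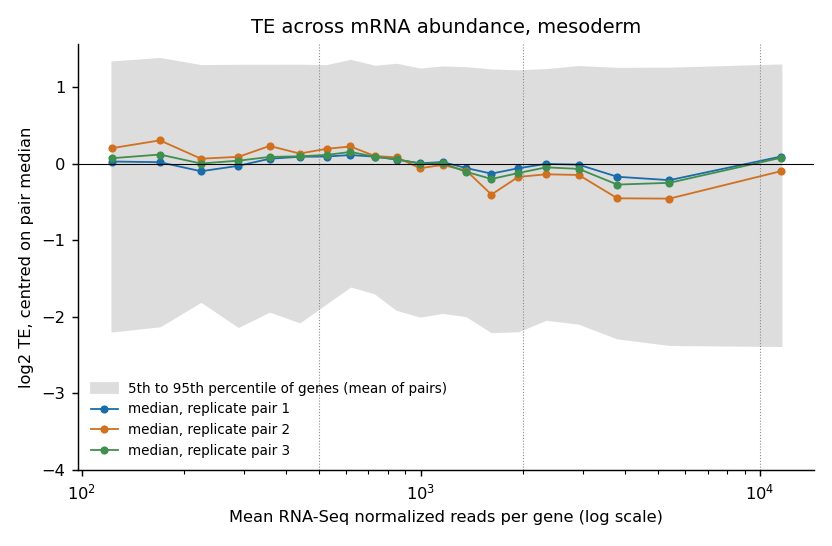
Median log2 TE (vertical axis, centred on each pair's median) against mean RNA-Seq normalized reads (horizontal axis, log scale) in 20 bins of members with equal numbers, 1 line per replicate pair, with the 5th to 95th percentile of genes shaded and the class limits dotted. All 3 lines stay near 0 while the shaded band reaches further below 0 than above it at every level of RNA.

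Median log2 TE was 0.09 in the lowest class, 0.00 in the next, -0.17 in the class of 2000 to 10000 and 0.21 in the highest. The low point of the third class was present in every pair (-0.09, -0.31 and -0.14), although its mean value was -0.09 without replicate 2. The top class stood at 0.13, 0.16 and 0.16 in the 3 pairs, above the lowest class in pairs 1 and 3 (0.02 and 0.07) but not in pair 2 (0.18). These shifts are smaller than the SD of TE between genes of a class, which ran from 1.01 to 1.18. Within the classes, the 5th percentile lay between -2.30 and -1.97 and the 95th between 1.25 and 1.31. TE-low genes made up 9.19% of the lowest class (313 genes), 9.11% of the next (422), 14.4% of the third (370) and 15.0% of the highest (51), beside 10.6% over all members. TE-high genes made up 1.53%, 0.713%, 0.935% and 0.880% of the 4 classes. The median gene of the lowest class had 115 to 164 Ribo-Seq reads depending on the library, against 7847 to 11910 in the highest. Counting error is thus larger at low RNA, but the median SD over pairs was 0.32 in the lowest class and 0.37 in the highest. Classes set by forelimb RNA of the other table, which shares no library with these values, gave medians of 0.16, 0.00, -0.25 and 0.22.

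The genes at the ends of TE in each class were of very different kinds. They are the 3 highest and 3 lowest called genes with a symbol and at least 10 reads in each Ribo-Seq library. Only 28.4% of table entries (3424) could be given a symbol, and the source that names many of them starts with TE-low and TE-high genes, so these are the ends among named genes. Positions are on GRCm38 (mm10), from GENCODE.

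Among abundant messages, with mean RNA of at least 10000, the lowest TE belonged to H19 (7:142575529-142578143, minus strand), an imprinted RNA annotated as a long non-coding RNA. The frame over which its reads were counted is not given in the sources used here. H19 had 24492, 36527 and 37724 normalized RNA reads and 359, 909 and 2355 normalized RPFs in replicates 1 to 3. Its log2 TE was -6.14, -5.30 and -4.02, a mean 35.6-fold below the median gene (SE 0.31, adjusted p = 1.1e-06). RNA exceeded RPFs by more than an order of magnitude in every pair, yet the 3 pairs differed from each other more than those of most genes (SD 1.06). Erdr1 followed at -3.68 ± 0.37 (SD, n = 3 pairs), with 17676, 5681 and 7191 RNA reads against 1102, 558 and 569 RPFs. 2610507B11Rik (11:78261752-78290623), which has a CDS of 6702 nt, lay at -3.41 ± 0.19. At the other end was Actb (5:142903115-142906754), cytoplasmic beta-actin, with RNA of 16046, 29528 and 21953 and RPFs of 83549, 203240 and 146237. Its log2 TE of 2.33, 2.81 and 2.71 stood 6.14-fold above the median (SE 0.21, adjusted p = 3.4e-06). Ywhae, a 14-3-3 adaptor protein, had 1.70 ± 0.23 and Pcbp1, an RNA-binding protein, 1.60 ± 0.37. Without replicate 2 both Ywhae (1.57) and Pcbp1 (1.40) lay under the 3-fold limit.

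In the class of 2000 to 10000 the highest TE was that of H2afx (9:44334694-44336077), the histone variant that is phosphorylated at DNA breaks. RNA of H2afx was 1363, 5063 and 4575 and its RPFs were 9830, 35424 and 28709. Although its RNA differed over 3-fold between replicates, its log2 TE was 2.80, 2.83 and 2.63, a mean of 2.75 (SD 0.11, adjusted p = 1.4e-06). Any H2afx message without a polyA tail is missing from its RNA reads, which would raise this value. Hba-x, the embryonic alpha-like globin, had 2.25 ± 0.48, and Kdelr2, a receptor that returns proteins to the endoplasmic reticulum, 1.83 ± 0.17. The lowest 3 were Lmtk3, a membrane kinase (-3.97 ± 0.59), Slc4a3, an anion exchanger (-3.79 ± 0.36), and Slc35a4 (-3.65 ± 0.28). Lmtk3 shows the scale: RNA was steady at 3588, 3586 and 3719 while RPFs were 192, 170 and 386. Slc4a3 had RNA of 2653, 2765 and 3004 against RPFs of 188, 156 and 289.

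Between 500 and 2000 the lowest gene was Mamdc4 (2:25563115-25574845), at 890, 805 and 928 RNA reads and 32.8, 29 and 54.2 RPFs. It stood 23.1-fold below the median (log2 TE -4.77, -4.72 and -4.10, adjusted p = 7.3e-07). Lime1, a membrane adaptor of lymphocytes, followed at -3.85 ± 0.06 and BC005537 at -3.75 ± 0.14. Both have a short CDS, of 807 and 687 nt. Highest was H3f3a, 1 of the pair of genes for histone H3.3, at 2.91 ± 0.58, ahead of Sh3bgrl (2.16 ± 0.50) and the mitochondrial ribosomal protein Mrpl34 (2.02 ± 0.49). H3f3a had RNA of 395, 781 and 784 and RPFs of 1941, 7663 and 7152. In the class of 100 to 500 the highest were Ubb (3.39 ± 1.59), Cx3cr1, a chemokine receptor of microglia and macrophages (2.48 ± 0.70), and Rpl14 (2.47 ± 0.75). Ubb varied most, with 380 RPFs in replicate 1 against 2164 and 2405 in the others. Lowest were Fam129c (-3.71 ± 0.26), the FGF receptor adaptor Frs3 (-3.38 ± 0.64) and Acrbp, an acrosomal protein (-3.35 ± 0.48), which rested on 10 to 22 Ribo-Seq reads in each library. Ubb, Actb, H3f3a and ribosomal protein genes have near-identical copies in the genome, and reads that matched more than 1 place were not counted, so their values are uncertain.

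**Figure D2:**
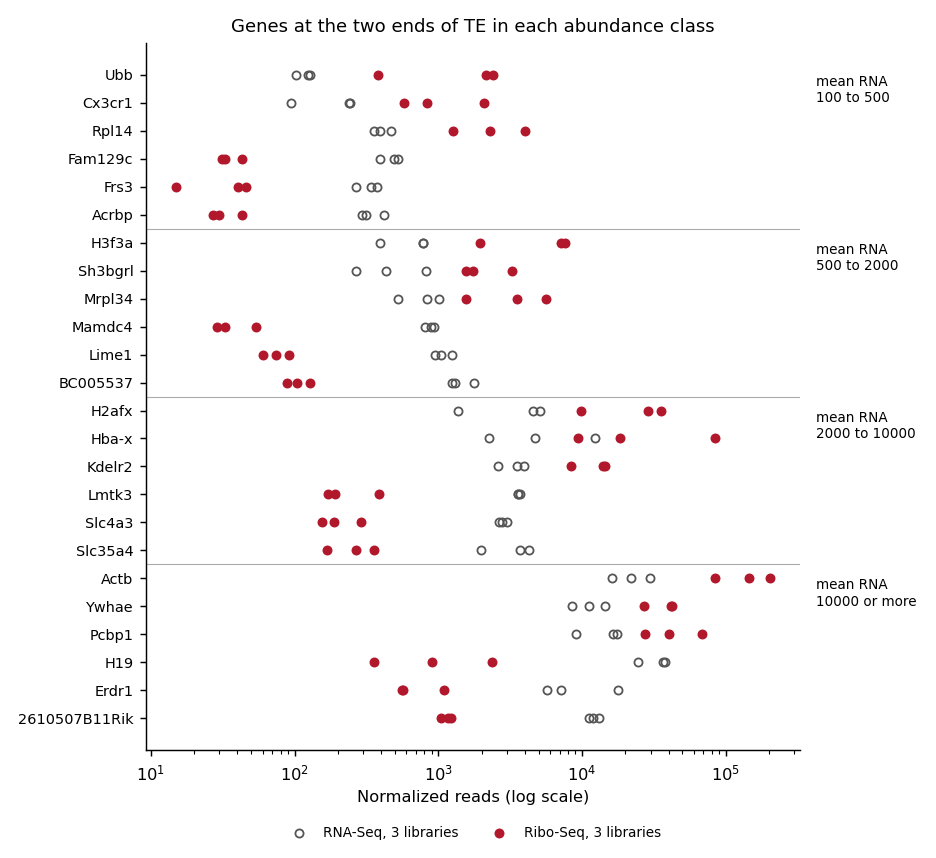
Normalized reads (horizontal axis, log scale) of the genes with the highest and lowest called TE in each abundance class, with open circles for the 3 RNA-Seq and filled circles for the 3 Ribo-Seq libraries. The 2 kinds of library do not overlap for any TE-low gene, from Fam129c (RPFs of 31.1 to 42.9 against RNA of 396 to 528) to H19; only for Hba-x do the ranges overlap among TE-high genes, because RNA of replicate 2 (12367) exceeded RPFs of replicate 1 (9340).

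To describe TE by gene group without letting the mesoderm libraries choose the named genes, groups were drawn from 1804 members. These carry a symbol in a table of NT and FL genes. That table was selected for TE differences between those tissues and not by mesoderm libraries. Mesoderm log2 TE correlated with that of FL (r = 0.94) and NT (0.88), so the names are not independent of TE. It is not a random sample of the transcriptome: 415 of its members (23.0%) were TE-low and 34 (1.88%) TE-high, and their median log2 TE was -0.40. Group counts are therefore set beside 23.0% and 1.88%. Genes of the signalling pathways the study drew are left out.

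TE of these genes went down with the length of the CDS. A CDS length was found for 1781 of them, as the longest annotated in GENCODE. Median log2 TE was 1.01 for the 277 genes with a CDS of up to 450 nt and 0.86 for the 378 genes of 451 to 900 nt. It was 0.11 for 265 genes of 901 to 1800 nt, -1.05 for 367 genes of 1801 to 3600 nt and -1.68 for 494 genes over 3600 nt. The order was the same in every pair and steepest in pair 2, from 1.32 down to -2.13, against 0.69 to -1.39 in pair 1 and 0.93 to -1.51 in pair 3. Across the 1781 genes, Pearson's r of log2 CDS length and log2 TE was -0.66, -0.78 and -0.71. TE-low genes were 274 of the 494 longest (55.5%) and 2 of the 277 shortest (0.722%), while TE-high genes were 20 of the shortest (7.22%) and 0 of both classes above 1800 nt. RNA and RPFs of a gene were counted over the same codons. The paper reports that RPFs piled up at the start of the CDS, with cycloheximide as a plausible cause, and left those first codons out. Whether any excess of RPFs in the codons after them contributed to the fall with length was not tested. Genes named through the NT and FL table share their selection, so the values describe them and not the whole mesoderm table. Over 2906 members with a symbol from any source r was -0.54, -0.68 and -0.60.

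**Figure D3:**
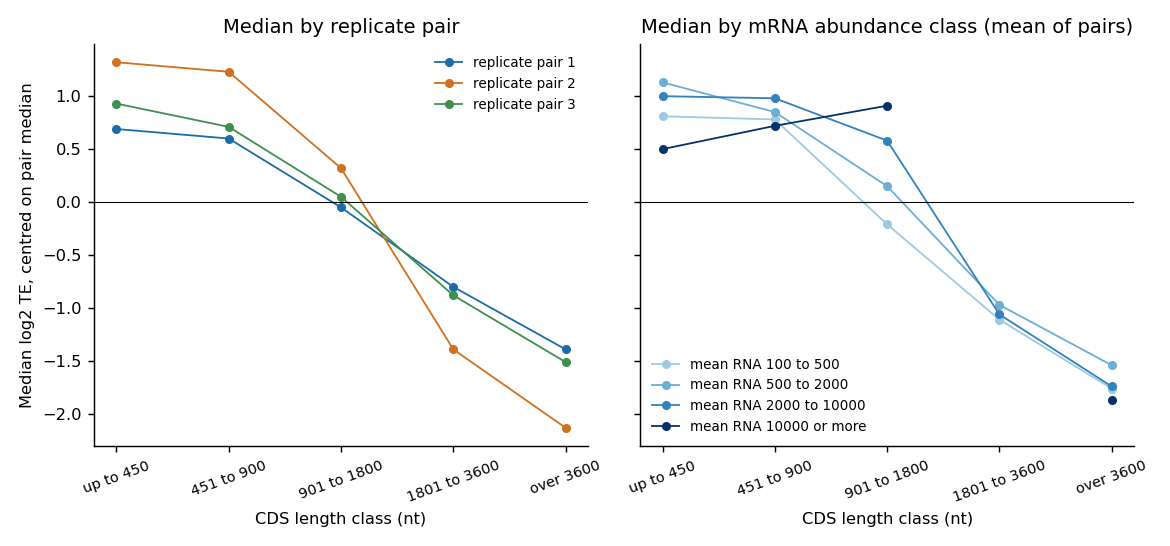
Median log2 TE (vertical axis, centred on each pair's median) of 1781 genes in 5 classes of CDS length (horizontal axis, nt), on the left with 1 line per replicate pair and on the right with 1 line per mRNA abundance class, leaving out combinations of fewer than 5 genes. All lines descend from 451 to 900 nt to the longest class except the most abundant genes up to 1800 nt, a line that ends on 5 genes at 0.91.

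The longest class lay below the shortest at each level of RNA. At 10000 or more the median first rose, to 0.72 at 451 to 900 nt and 0.91 at 901 to 1800 nt. From the shortest to the longest class the median went from 0.81 to -1.76 for genes of 100 to 500 normalized reads, from 1.13 to -1.54 at 500 to 2000, from 1.00 to -1.74 at 2000 to 10000 and from 0.50 to -1.87 at 10000 or more. Within a length class, abundance moved the median much less: among genes over 3600 nt it was -1.76, -1.54, -1.74 and -1.87 from the lowest to the highest class. The exception was the class of 901 to 1800 nt, where the median went up with RNA from -0.21 (125 genes) to 0.15 (88), 0.58 (47) and 0.91 (5).

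Reads per gene grow with length, so the meaning of an abundance class depends on the unit. Among the 1781 named genes, classes by normalized reads gave medians that went down with abundance, at -0.05, -0.13, -1.05 and -1.27. These classes held 497, 728, 474 and 82 genes. Sorting the same genes by normalized RNA reads per codon, in classes of 554, 753, 418 and 56 genes (the shares that the 4 classes have among all members), turned that order round: the medians were -1.04, -0.71, 0.85 and 0.95, and TE-low genes were 31.8% of the lowest class and 0 of 56 genes in the highest. Class medians of these genes were thus highest with the most reads per codon and lowest with the most reads per gene. Dividing by length moves short genes into the upper classes, and TE of these genes went down with length. The turned order therefore does not show a relation of TE to abundance apart from length.

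Most genes for cytosolic ribosomal proteins, the parts of the translating ribosome itself, lay above the median. None of the 27 in the group was called, and 23 were above 0, with a median log2 TE of 0.52 and pair medians of 0.13, 1.00 and 0.53. Without replicate 2 that median was 0.29. The lowest was Rps12 (-0.69 ± 0.43) and the highest Rps4l (1.29 ± 0.38), which GENCODE annotates as a transcribed processed pseudogene without a CDS. The TE-high Rpl14 (2.47) is also a cytosolic ribosomal protein gene, but its symbol came from the other source and it is not among the 27. Messages of ribosomal proteins in vertebrates begin with a pyrimidine tract at the cap through which nutrient signalling controls them. A run of at least 8 pyrimidines (C or T in any order, transcribed strand only) within the 30 bases from 10 before to 20 after a RefSeq start was present in 6 of 20 members with a start in the reference (30.0%), against 13.1% of 17492 protein-coding genes. Where a gene had several starts, the one with the longest run was taken. The same scan found a run in 18.2% of 33 chromatin regulators, 10.3% of 29 mitochondrial ribosomal protein genes and 5.88% of 34 respiratory chain genes. The 6 windows of cytosolic ribosomal protein genes are shown so that the place of the run (in capitals) can be seen against the annotated start, which is base 11 of each (GRCm38.p6, 5′ to 3′ on the gene's strand).
Rpl7a, chr2:26910797-26910826, plus strand: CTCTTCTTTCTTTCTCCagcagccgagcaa
Rpl35, chr2:39005112-39005141, minus strand: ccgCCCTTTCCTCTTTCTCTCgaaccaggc
Rps12, chr10:23787190-23787219, minus strand: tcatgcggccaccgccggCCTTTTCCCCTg
Rpl18, chr7:45718061-45718090, plus strand: ctcgcaggccgCTCTTTCCCCgcccactcc
Rpl19, chr11:98026914-98026943, plus strand: TCTCCCCTTCgcagataatgggcggagcct
Rpl39, chrX:37085203-37085232, minus strand: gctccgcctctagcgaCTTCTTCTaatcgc
The run lay over the start in 2 windows (Rpl7a and Rpl35), before it in 1 (Rpl19) and after it in 3. Annotated starts of some of these genes may lie away from the cap, so a run in the window is not shown to be a cap tract, and a window without one does not show that the message lacks it. These 6 ran from Rps12 at -0.69 to Rpl7a at 1.16. Their median log2 TE was 0.61, against 0.51 for the 14 without a run in this window. Rps12 had 21407, 27632 and 22487 RNA reads and 12267, 23598 and 11363 RPFs, whereas Rpl7a had 12333, 13707 and 11058 RNA reads and 21731, 47082 and 20907 RPFs.

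The mitochondrial groups stood higher. Of 33 mitochondrial ribosomal proteins 32 were above 0, with a median of 1.18 (pairs 0.80, 1.59 and 0.99), from Mrpl18 (-0.02 ± 0.40) to Mrpl34 (2.02 ± 0.49), and 2 were TE-high (6.06%). Of 41 genes of the respiratory chain and ATP synthase, 40 were above 0 and 5 were TE-high (12.2%), with a median of 1.21. Uqcr11, a small subunit of complex III with a CDS of 168 nt, was highest at 2.01 ± 0.48. It had RNA of 647, 984 and 923 and RPFs of 2045, 5632 and 3473, so that the 2 kinds of library did not overlap. Ndufs1, the largest core subunit of complex I, was the only one below 0, at -0.56 ± 0.42. Mitochondrial protein import genes (15) had a median of 1.14, from Dnajc19 (-0.11 ± 0.27) to Grpel1 (1.49 ± 0.26), and no call. Translation factors and tRNA synthetases (12) were mixed, with a median of -0.59, from Eif4ebp3 (-1.58 ± 0.33), an inhibitor of the cap-binding protein, to the elongation factor Eif5a (1.21 ± 0.37).

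Within multi-subunit complexes, members differed widely. The 13 RNA polymerase genes had a median of 0.52 (0.32 without replicate 2), but their quartiles were -1.06 and 1.04, and the 5 below 0, named after their values were seen, were the large subunits Polr1a, Polr2a, Polr2b, Polr3a and Polr3b. Polr2l, a subunit shared by the nuclear polymerases with a CDS of 201 nt, was TE-high (1.76 ± 0.58), while Polr1a, the catalytic subunit of polymerase I with 5151 nt, was TE-low (-1.68 ± 0.76). The spliceosome was alike: Prpf8, its largest core protein (7005 nt), was TE-low at -1.94 ± 0.75 and Sf3b5 (258 nt) TE-high at 1.70 ± 0.56, among 22 genes with a median of 0.97. Without replicate 2, Polr1a (-1.29), Prpf8 (-1.50), and Sf3b5 (1.37) no longer reached 3-fold. Proteasome genes (8) had a median of 1.12, from the regulatory subunit Psmd1 (-0.69 ± 0.76) to the catalytic subunit Psmb6 (1.32 ± 0.32). All 9 replacement and other histone genes were above 0, with a median of 1.29, and 4 were TE-high (44.4%). RNA-Seq was made from polyA RNA and Ribo-Seq was not. A histone message without a polyA tail would therefore count in the RPFs only, and the share of such messages was not tested. The lowest of them was the linker histone H1f0 (0.52 ± 0.18).

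**Figure D4:**
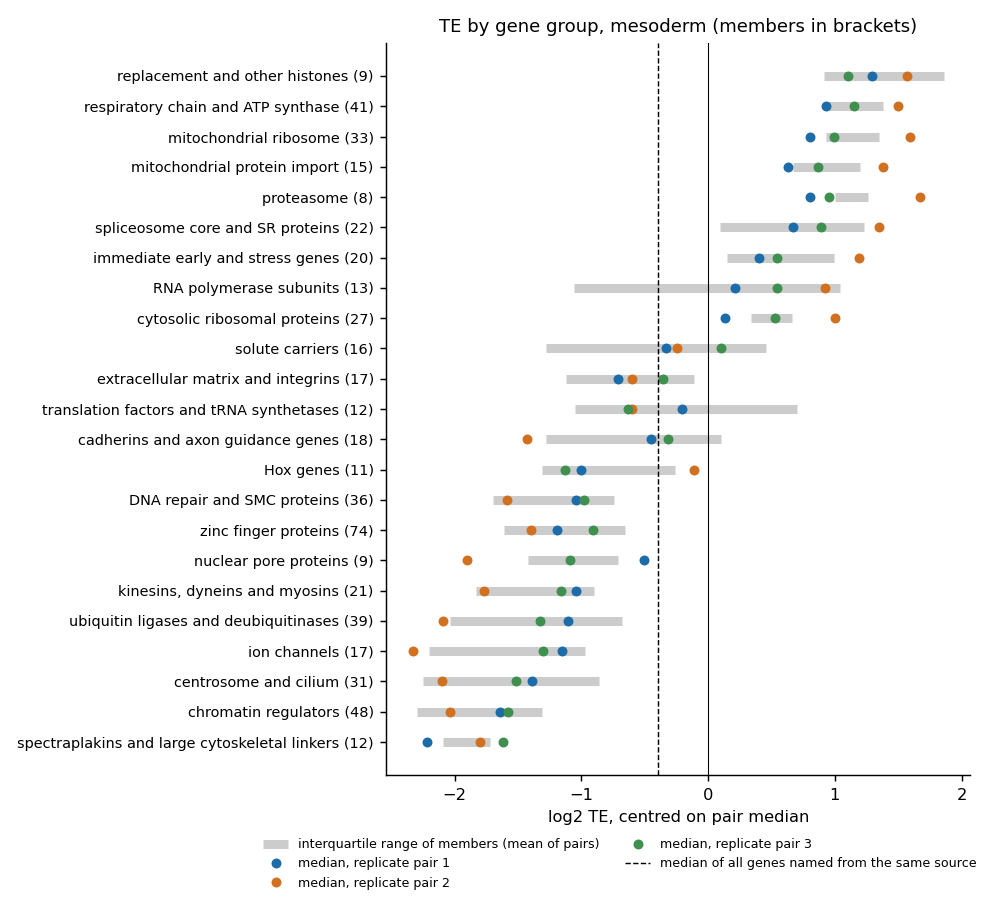
Median log2 TE of each gene group in the 3 replicate pairs (points; horizontal axis, centred on each pair's median) with the interquartile range of members (bars) and the number of members in brackets; the dashed line is the median of all genes named from the same source (-0.40). Histone, mitochondrial and proteasome groups stand near 1 and chromatin, cytoskeletal linker and centrosome groups below -1.5.

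Chromatin regulators lay at the other end, and other nuclear groups were below the median too. Of 48 chromatin regulators, enzymes and readers of histone marks and nucleosome remodelers, 29 were TE-low (60.4%, beside 23.0%) and 47 were below 0. Their median was -1.77, with pair medians of -1.64, -2.04 and -1.58. The median CDS of the group was 5445 nt, and 55.5% of the named genes over 3600 nt were TE-low. Kmt2a, a histone H3K4 methyltransferase with a CDS of 11898 nt, was lowest. Its RNA was 9880, 8552 and 8886 and its RPFs 1005, 882 and 2321, a log2 TE of -2.85 ± 0.77 (adjusted p = 5.4e-06). Smarcad1, a remodeler, was the highest at 0.26 ± 0.16. Zinc finger proteins (74), mostly DNA-binding repressors, had a median of -1.22 and 20 TE-low genes (27.0%), from Zbtb4 (-3.03 ± 0.46) to Zfp593 (1.07 ± 0.30). DNA repair and SMC proteins (36) were all below 0, with a median of -1.19 and 10 TE-low genes (27.8%). This share and that of zinc finger proteins were near the 23.0% of all named genes. DNA repair and SMC genes ran from Polq (-2.89 ± 0.63), a polymerase of end joining, to Lig4 (-0.05 ± 0.25). The 9 nuclear pore genes had a median of -1.26 (-0.80 without replicate 2). Of these only Ahctf1 was TE-low (-1.76 ± 0.60), and without replicate 2 it stood at -1.43; Nup62 was highest at 0.89 ± 0.52.

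Hox genes, which set position along the body axis and limb, were low for genes of their size. The 11 found had a median of -0.77 (-0.50 without replicate 1 and -1.06 without replicate 2) and pair medians of -1.0, -0.11 and -1.13. Of them 3 were TE-low (27.3%), a share near the 23.0% of all named genes. Hoxa6 was lowest (6:52206288-52208722). Its RNA was 716, 538 and 736 and its RPFs 93.8, 39.4 and 122, a log2 TE of -3.09 ± 0.56 (adjusted p = 2.4e-06). Its paralog Hoxc6 had RNA of 976, 753 and 881 and RPFs of 959, 1585 and 1147, a log2 TE of 0.46 ± 0.59 (adjusted p = 0.083). The 2 genes have CDSs of 696 and 705 nt and mean RNA of 663 and 870, and the RPFs of Hoxa6 lay far below those of Hoxc6 in every replicate. Chosen after their values were seen, the other 2 TE-low Hox genes were Hoxa3 (-1.93 ± 0.33) and Hoxd3 (-1.70 ± 0.55), of the same paralog group, while Hoxb4 (-0.02 ± 0.34), Hoxc4 (-0.20 ± 0.49) and Hoxd4 (-0.93 ± 0.58) were not called.

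Groups of cytoskeletal, regulatory and ion channel genes were low as well. Of 12 spectraplakins and large linkers, which tie actin, microtubules and membranes together, 9 were TE-low (75.0%), from Dst (-3.14 ± 0.60) to Map1b (-0.51 ± 0.74). Dst, with a CDS of 23151 nt, had RNA of 6122, 4301 and 5168 and RPFs of 472, 483 and 899. Of 31 centrosome and cilium genes 17 were TE-low (54.8%), with a median of -1.75. Cep250, a centrosome linker (-3.20 ± 0.53), and B9d2, a small transition zone protein (0.99 ± 0.48), were the extremes. Motor proteins (21) had 8 TE-low genes (38.1%), from Kifc2 (-3.71 ± 0.27) to Kif18a (-0.44 ± 0.31). Kifc2 rested on 11, 8 and 13 Ribo-Seq reads in replicates 1 to 3. Of 39 ubiquitin ligases and deubiquitinases 18 were TE-low (46.2%), from Usp31 (-2.71 ± 0.58) to Rnf187 (1.09 ± 0.14). Of 17 ion channels 10 were TE-low (58.8%), from the ryanodine receptor Ryr1 (-3.43 ± 0.87) to the potassium channel Kcnj2 (1.02 ± 0.16). The median CDS of each of these groups was over 3600 nt, and 55.5% of the named genes of that length were TE-low.

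The matrix and integrin group and the cadherin and axon guidance group, whose CDSs are also long, lay nearer the median. This does not hold for cell surface proteins in general, since ion channels had a median of -1.72. The 17 matrix and integrin genes, with a median CDS of 5208 nt, had a median log2 TE of -0.52 and 4 TE-low genes (23.5%, beside 23.0%). Vcan, the large matrix proteoglycan versican with a CDS of 10062 nt, was the highest. Its RNA was 37949, 14791 and 27280 and its RPFs 40269, 22335 and 49638, a log2 TE of 0.50 ± 0.41 (adjusted p = 0.061). The metalloprotease Adamts6, with 3351 nt, was lowest at -3.24 ± 0.35. The 18 cadherins and axon guidance genes, with a median CDS of 5647 nt, had a median of -0.72 (-0.40 without replicate 2) and 3 TE-low genes (16.7%). They ran from Sema4g (-2.81 ± 0.27) to Sema3a (0.95 ± 0.20), semaphorins of 2511 and 2316 nt. Sema4g, a membrane semaphorin, had RNA of 1621, 1758 and 2007 and RPFs of 238, 203 and 350, and Sema3a, a secreted one, RNA of 1825, 846 and 1289 and RPFs of 3119, 1732 and 2760. Solute carriers (16) had a median of -0.11 (-0.04 without replicate 2 and -0.24 without replicate 3), from Slc4a3 to the amino acid transporter Slc38a4 (1.55 ± 0.25). Immediate early and stress genes (20), with a median of 0.69, had no call: Hmox1, heme oxygenase, was highest (1.56 ± 0.83) and Socs1, a brake on cytokine signals, lowest (-1.55 ± 0.81).

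Because length differed between groups, each gene was next set against the median of its own CDS length class, a comparison chosen after the data were seen and described without a test. Relative to that median, the matrix group stood at 0.91 (pairs 0.51, 1.37 and 1.15), with 14 of 17 genes above it, and cadherins and guidance genes at 0.87 (0.86, 0.64 and 1.14), with 15 of 18 above. Hox genes stood at -1.40 (-1.55, -1.34 and -1.26), with all 11 below. Cytosolic ribosomal proteins stood at -0.46 (-0.50, -0.30 and -0.39), with 24 of 26 below, whereas mitochondrial ribosomal proteins stood at 0.27 with 25 of 33 above and respiratory chain genes at 0.27 with 29 of 40 above. Chromatin regulators, far below the median of all genes, lay only 0.20 below that of their length class (-0.20), and kinesins, dyneins and myosins lay above theirs (0.25). DNA repair and SMC proteins (0.18, 23 of 36 above) and nuclear pore genes (0.42, 8 of 9 above) also lay above theirs. Zinc finger proteins stood at -0.42, centrosome and cilium genes at -0.27 and ion channels at -0.26. Ubiquitin ligases and deubiquitinases stood at -0.22. Large cytoskeletal linkers stood at -0.17, with pairs on both sides of 0 (-0.83, 0.33 and -0.11). A straight line on log2 CDS length in place of classes gave 0.67 for matrix genes, 1.30 for cadherins and guidance genes, -0.76 for Hox genes, -0.38 for cytosolic and 0.48 for mitochondrial ribosomal proteins, 0.14 for respiratory chain genes, 0.12 for kinesins, dyneins and myosins and -0.17 for chromatin regulators. It gave 0.26 for DNA repair and SMC proteins, 0.28 for nuclear pore genes and -0.41 for zinc finger proteins. Centrosome, ion channel, ubiquitin and linker groups stood at -0.22, -0.29, -0.01 and 0.25.

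**Figure D5:**
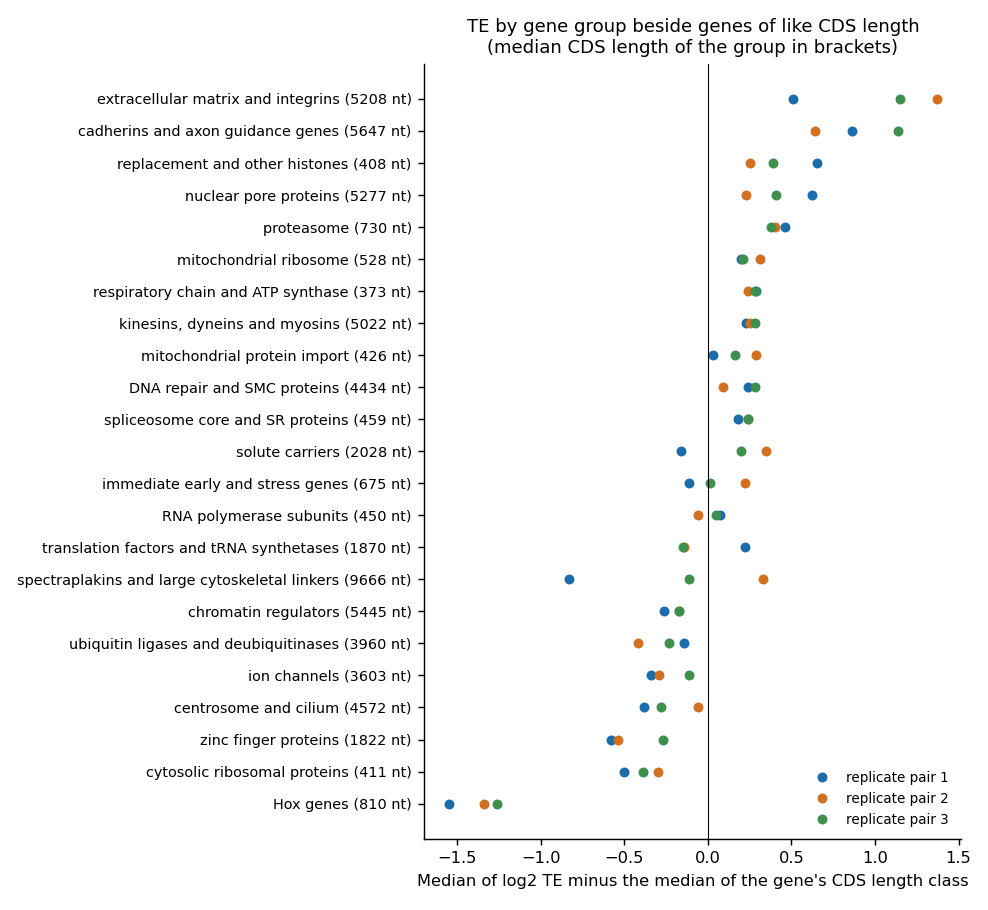
Median over each group of log2 TE minus the median of the gene's CDS length class (horizontal axis) in the 3 replicate pairs (points), with the median CDS length of the group in brackets. Over the mean of pairs, matrix and adhesion groups lie furthest right (0.91 and 0.87), although histone and nuclear pore genes lie right of the matrix group in pair 1. Hox genes lie furthest left (-1.40) in all 3 pairs.

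Genes with well studied uORFs formed a further set. Of 11 listed, 8 carried a symbol, 6 of them only through the source that starts with TE-low genes, so the share of low values depends on which genes could be named. Of the 8, 7 were TE-low. Atf4, the transcription factor of the integrated stress response whose uORFs hold back its translation in unstressed cells, had RNA of 6329, 5416 and 4313 and RPFs of 447, 446 and 594. Its log2 TE was -3.87, -3.57 and -2.88 (10.9-fold below the median, SE 0.21, adjusted p = 1.1e-06). Its relative Atf5 had -2.91 ± 0.38, and Ppp1r15a, the phosphatase subunit that ends the same response, -3.03 ± 0.78. Slc35a4, whose leader encodes a separate small protein, was the lowest at -3.65 ± 0.28. Ifrd1 (-2.03 ± 0.15) and Mdm4 (-1.95 ± 0.14) were lower than Ddit3 (-1.52 ± 0.95), which missed the 3-fold limit. Ddit3 and Ibtk (-2.02 ± 0.72) were the ones named through the NT and FL table, which the mesoderm libraries did not select. Ddit3, a stress-induced factor that promotes cell death, had RNA of 180, 124 and 138 and RPFs of 29.8, 68.5 and 63.2, and stood at -2.60 in pair 1 against -0.82 and -1.14 in the others.

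RNAs listed as non-coding were read as a further set. Of 11 listed, 4 carried a symbol, and 1 of the 4, Snhg11, has a CDS of 261 nt in GENCODE. H19 is described above. Miat, a long non-coding RNA annotated without a CDS, had RNA of 442, 468 and 722 and RPFs of 79, 64.3 and 70, a log2 TE of -2.90 ± 0.43. Kcnq1ot1 (-2.62 ± 0.14) and Snhg11 (-3.28 ± 1.72) had mean RNA of 92.9 and 42.1 and were outside the members, on 3 to 12 and 0 to 7 Ribo-Seq reads. Protein-coding genes reached the same level: Kmt2a (-2.85) and Hoxa6 (-3.09) stood beside Miat, and Mamdc4 (-4.53) and Lmtk3 (-3.97) between Miat and H19 (-5.15).

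Markers of the cells in the gate were read next. Of 13 mesoderm markers 4 carried a symbol, and all 4 had RNA reads in every library: Pdgfra, a receptor of mesenchyme (10253, 9845 and 10816 RNA reads), Msx1 (1934, 3342 and 1979), Tcf15 (520, 837 and 750) and Myf5 (198, 140 and 215), the last being TE-high at 1.74 ± 0.63 but at 1.38 without replicate 2. Msx1 (-0.07 ± 0.22), Pdgfra (0.50 ± 0.30) and Tcf15 (0.99 ± 0.41) were not called. Of 10 neural markers 3 carried a symbol, and whether neural cells were in the gate was not tested. Nes had 6140, 8412 and 7964 RNA reads and was TE-low (-1.85 ± 0.34), while Ncam1 (1.63 ± 0.08) and Dcx (1.81 ± 0.31) were TE-high. Nes is also made by muscle and vessel progenitors. Myf5, Ncam1 and Dcx were named through the source that starts with called genes. Of 8 endothelial markers 6 carried a symbol, and none was called: Tek (-0.44 ± 0.34), Tie1 (-0.38 ± 0.28), Egfl7 (-0.13 ± 0.27), Kdr (0.58 ± 0.53), Flt1 (0.69 ± 0.51) and Esam (0.85 ± 0.40). Epcam, the single epithelial marker of 8 with a symbol, had a mean of 122 RNA reads (0.91 ± 0.34).

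Blood markers differed between replicates, and so did their TE. The summed RNA of the 4 erythroid markers with a symbol, of 13 listed, was 2628, 13069 and 5494 and their summed RPFs 9757, 86209 and 19552 in replicates 1 to 3, nearly all of it Hba-x. Hba-x RNA was 2250, 12367 and 4719, with a log2 TE of 2.01, 2.80 and 1.94. Rhd, a red cell antigen, was TE-high (1.70 ± 1.00; 1.27 without replicate 2 and 1.57 without replicate 3), and Gypc (0.85 ± 0.32) and Ermap (-1.24 ± 1.19) were not called. Summed RNA of 6 macrophage markers of 9 was 1645, 2355 and 2343 and their RPFs 3206, 12730 and 5311. Each had its highest TE in pair 2: Laptm5 (2.33 ± 0.47) was TE-high, as was Fcer1g (1.63 ± 0.76), which at a mean RNA of 89.4 is no member and stood at 1.20 without replicate 2, and Csf1r (1.34 ± 0.89), Hcls1 (1.33 ± 0.80), C1qb (1.19 ± 1.01) and C1qc (1.10 ± 1.13) were not called. Hba-x and Cx3cr1, among the highest genes of their classes, belong to these lineages. In bulk cells, more cells of a type and more RNA per cell cannot be told apart, and the part of blood cells in the wider spread of pair 2 was not tested.

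Set against the tissues of the other table, which was normalized on its own, mesoderm log2 TE correlated across genes at r = 0.94 with FL (10294 shared genes) and 0.88 with NT (10210 shared genes), each over genes with mean RNA of at least 100 in both. Limb mesenchyme is itself within the sorted lineage.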

How the data were processed

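RNA-Seq and Ribo-Seq of GFP+ mesodermal cells were taken from 1 table of 6 libraries. Per the labels and the study's methods, the authors trimmed reads with cutadapt, aligned them with Bowtie2 to canonical UCSC known genes of mm10 and kept unique matches. Reads were counted per CDS, leaving off 15 codons at the start and 5 at the end, and scaled by DESeq size factors. The deposited values are thus normalized reads, a linear signal per gene that is not corrected for length. Whole reads were recovered from the step between values (tolerance 0.006); 100% of values were whole.

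TE was computed with a pseudocount of 1 and tested with limma 3.58.1 (mean trend, replicate block) in R 4.3.3 over all 12064 genes. edgeR 4.0.16 and DESeq2 1.42.0 on recovered reads were alternatives, and all 3 were tested on simulated data. Library scaling cancels in the centring of each pair. Fold changes are on the log2(value + 1) scale and understate those of low genes. Replicate numbers pair the libraries, since each sort was divided between both kinds: deviations from the means of their kind correlated at 0.74, 0.58 and 0.57 within numbers 1 to 3.

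The table gives UCSC IDs without symbols. Symbols came from the study's supplementary lists, for 3424 IDs, and entries turned into dates by a spreadsheet were dropped. CDS lengths and positions came from GENCODE vM21 by symbol, and start windows from RefSeq (GRCm38.p6). Named genes were the 3 highest and 3 lowest called genes of each abundance class, the extremes of each list and all symbols found of the uORF, non-coding and marker lists. Members and the 23 group lists were chosen with earlier results of these data known. Classes, groups and lengths are described without a test, since genes are not replicates. Limma p-values measure the spread between 3 sorts. One further group and 1 marker are not reported here. Mesoderm columns of fold changes in the supplements were not used.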

Additional observations from a re-analysis of the deposited data

How the results depend on the processing

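The counts of 1156 TE-low and 112 TE-high genes stayed within 1.5 times under both pseudocounts (0.5 and 8), edgeR (1151 and 112), DESeq2 (1157 and 112), a fit on members alone, both other centrings and counting all genes of the table. Without the replicate block they were 1142 and 106, all among those called with it; Hba-x and Rhd lost their call, and the block changed no other named gene. At 2-fold instead of 3-fold they were 2346 and 1450. Leaving out 1 replicate moved TE-high genes between 54 (without replicate 2) and 226 (without replicate 1), and TE-low genes between 1012 and 1264. Class medians did not move with a pseudocount of 8; with forelimb RNA the lowest class went from 0.09 to 0.16 and the third from -0.17 to -0.25. With classes by RNA of replicate 1 and TE of pairs 2 and 3, the top class stood at 0.28, and over replicates left out it ran from 0.17 to 0.24. On the 1781 named genes, a choice added after the data were seen, class medians were -0.05, -0.13, -1.05 and -1.27 and TE-low shares 15.5%, 17.7%, 34.4% and 41.5%. By RNA per codon these were -1.04, -0.71, 0.85 and 0.95, and 31.8%, 25.9%, 7.66% and 0%; both alternatives are built on fewer genes, selected by name. With members named from any source, translation factors stood at -1.05, matrix genes at -1.07 and solute carriers at -1.47; the added source starts with TE-low genes. Matrix genes ran from -0.74 to -0.47 over replicates left out. Relative to CDS length, mitochondrial import changed sign against a straight line (-0.08) and zinc finger proteins with any symbol (0.10), as did some groups whose pairs already lay on both sides of 0. Hox genes went from -1.40 to -0.76 relative to their length class with any symbol. Dropping the RNA minimum or a pseudocount of 8 moved no group beyond its spread over pairs. Eif4ebp3, Grpel1, Slc38a4, Socs1, Hmox1, Ddit3, Ermap, C1qb, Hcls1 and Csf1r, not called with all replicates, passed both limits without 1 of them. The depth of the Ribo-Seq libraries limits genes that rest on few reads, among them Frs3, Acrbp, Fam129c, Mamdc4, Kifc2, Zbtb4, Snhg11 and Kcnq1ot1.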
